A study of Mus musculus with 8 samples.

Results

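The cells described here are the mesothelial cells and fibroblasts caught in single-cell RNA sequencing of sorted mouse liver cells. A cell was taken as a member when it held at least 1 transcript count (UMI, a molecule counted once by its tag) of at least 3 of 10 markers. The markers were Msln, Upk3b, Upk1b, Wt1, Gpm6a and Lrrn4 for mesothelium, and Dcn, Col3a1, Col1a1 and Col1a2 for fibroblasts. A cell with 3 or more of the biliary markers Epcam, Krt7, Sox9, Cldn7 and Tm4sf4 was left out. Members with at least 2 of the 6 mesothelial markers were called mesothelial and the remaining ones fibroblast. The rule found 60 members among 3192 cells, 47 mesothelial and 13 fibroblast. The rule reads expression, so the levels of these 15 genes in the members are given as a description only.

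The study asked how a diet that causes fatty liver disease changes liver cells, with oxidized LDL and the lymphatic vessels of the liver in its title. It compared 4 libraries from mice on the HFHC diet with 4 libraries from mice on chow. The HFHC diet is named high fat and high cholesterol in the design text, and high calorie in the sample titles. Both groups were purchased male C57BL/6 mice of 6 to 8 weeks, fed freely for 20 to 32 weeks. Non-parenchymal liver cells were freed of dead cells, sorted to enrich endothelial cells after staining of CD45, CD31 and CD146 together with podoplanin, so mesothelial cells and fibroblasts were not the target of the sort. The libraries differed in size. HFHC 1 to HFHC 4 held 47, 74, 857 and 616 cells, and control 1 to control 4 held 55, 875, 574 and 94 cells. Their totals ran from 304090 to 2309209 UMIs in the HFHC libraries and from 170448 to 1775987 UMIs in the control libraries. Members were deeper than the remaining cells, with a median of 4940.5 UMIs and 1811 genes per member against 1644 UMIs and 851 genes per other cell.

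Several libraries stood apart or shared cells. The same cell barcodes recurred across 5 libraries (HFHC 1 to 3, control 1 and 2), with 33 to 65 barcodes in common for each pair. Only the copy with most UMIs of each such barcode was used, which removed 224 of 3416 deposited cells. Of the 60 members, 27 had 85 removed copies, 55 of which also met the marker rule. A median of 98.4% of the genes in a copy were also seen in the kept cell of the same barcode, against 56.0% in other members. The library of origin of these 27 members was therefore assigned by count, in 9 cases to HFHC 1, in 1 to HFHC 2 and in 17 to control 1. In control 4, labelled male like the rest, 2 of 4 members held Xist transcripts and none held a Y-linked one, while no member of another library held Xist.

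Mesothelium is the flat epithelium that covers the liver surface and lines the body cavity. It arises from mesoderm and so carries both epithelial features, such as keratins and tight junctions, and mesenchymal ones, such as vimentin and matrix genes, and in the developing liver it gives rise to stellate cells and fibroblasts. Liver fibroblasts sit around the portal tracts and the capsule and build collagen matrix, while hepatic stellate cells, the vitamin A storing pericytes of the sinusoid, are a related mesenchymal type.

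Among the rule markers, most mesothelial genes were rare in the rest of the liver cells as a whole, but not in every library. Msln encodes mesothelin, a surface glycoprotein of mesothelium. It lies on chromosome 17 from 25748613 to 25754378 on the minus strand (mm10, GENCODE vM21) and was detected in 34 of 60 members, against 33 of 3132 other cells. Upk3b, a uroplakin of mesothelium, lies on chromosome 5 from 136038496 to 136046487 on the plus strand and was found in 45 of 60 members, against 26 of 3132 other cells. Wt1, the transcription factor of the embryonic mesothelium, lies on chromosome 2 from 105126529 to 105173616 on the plus strand and was found in 25 of 60 members, against 7 of 3132 other cells. In HFHC 1, however, Msln was also seen in 13 of 32 and Upk3b in 15 of 32 cells outside the rule, the biliary-marked cells among them. Gpm6a, a neuronal membrane glycoprotein also found in mesothelium, was the least specific, in 34 of 60 members against 87 of 3132 other cells, 27 of them among the 90 other cells of control 4. Dcn, the collagen-binding proteoglycan decorin, on chromosome 10 from 97479609 to 97518143 on the plus strand, was in 55 of 60 members. Cells marked as leukocytes, which should lack these genes, were used to gauge the background of free RNA. Members and biliary-marked cells were kept out of that set, so none of its cells held 3 or more rule markers. The background given can therefore be too low. Dcn was seen in 24 of 313 leukocyte-marked cells at a median depth of 2359 UMIs, and Msln in 6 of 313. That background was uneven across libraries, since Dcn was seen in 5 of 11 leukocyte-marked cells in HFHC 1 and in 4 of 5 in control 1, against 1 of 178 in HFHC 3 and 7 of 91 in control 2. Among these 4 libraries, Dcn thus turned up in a larger share of unrelated cells in the 2 libraries with most members. The remaining libraries are not given here.

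The promoters of the mesothelial markers Upk3b and Lrrn4 are shown because both hold a motif that recurred among the rule genes. The 300 bases of each, from 250 before to 50 after the transcription start, are written 5′ to 3′ on the strand of the gene, from RefSeq sequence of GRCm38.p6. Upk3b spans chr5:136038246-136038545 on the plus strand and Lrrn4, a leucine-rich repeat neuronal protein also used to mark mesothelium, spans chr2:132880813-132881112 on the minus strand. Capitals mark GGAATG or its reverse complement CATTCC, the core of the motif bound by TEAD factors.
Upk3b: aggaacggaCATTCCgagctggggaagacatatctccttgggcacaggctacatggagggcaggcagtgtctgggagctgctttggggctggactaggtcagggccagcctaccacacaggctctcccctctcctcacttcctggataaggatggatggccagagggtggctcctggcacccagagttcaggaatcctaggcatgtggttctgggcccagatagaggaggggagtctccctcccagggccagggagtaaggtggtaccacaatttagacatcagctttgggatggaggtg
Lrrn4: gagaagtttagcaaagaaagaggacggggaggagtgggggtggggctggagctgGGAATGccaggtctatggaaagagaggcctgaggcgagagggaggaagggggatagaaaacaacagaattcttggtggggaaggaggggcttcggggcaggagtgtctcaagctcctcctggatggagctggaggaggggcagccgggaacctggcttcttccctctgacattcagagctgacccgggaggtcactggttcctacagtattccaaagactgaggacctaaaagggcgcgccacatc
The match began at position 10 of the Upk3b window and at position 55 of the Lrrn4 window. The sequence table held 5 of the 10 rule genes, with 6 promoters. GGAATG on either strand was in 4 of these 6 (Upk3b, Lrrn4, Gpm6a and Col3a1), and in 14.7% of all 32851 promoters of the same length. GCGTGGG, which reads CCCACGC on the other strand and is a motif of WT1 and EGR factors, was in none of the 6 and in 5.04% of all promoters. AGATAA, which reads TTATCT on the other strand and is bound by GATA factors, was likewise in none of the 6 and in 11.2% of all. TATAAA, with TTTATA on the other strand, and the GC box GGGCGG, with its reverse CCGCCC, were each in 2 of the 6, and in 13.6% and 35.7% of all promoters. A match is a run of letters and does not show that a factor binds there.

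**Figure D1:**
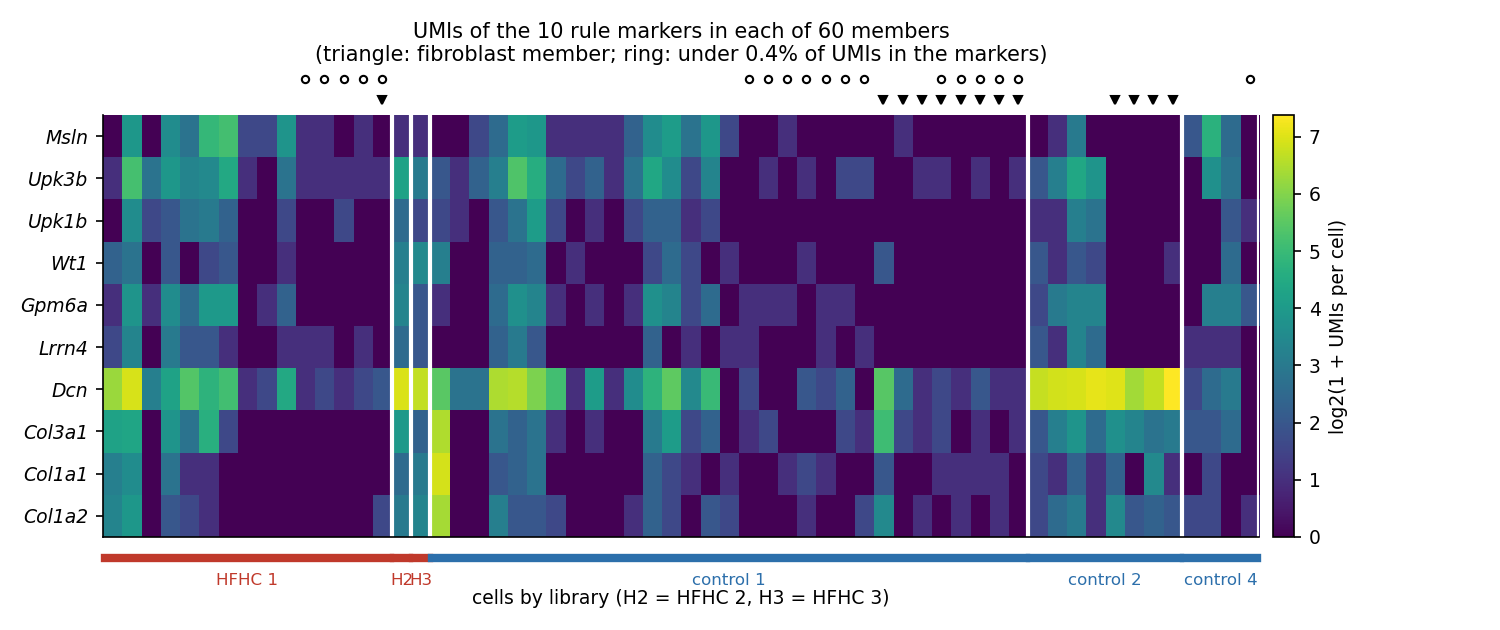
Heat map of the 10 rule markers (rows, as log2 of 1 plus UMIs) in each of the 60 members (columns, grouped by library, HFHC libraries left and control libraries right). Triangles mark the 13 fibroblast members and rings the 18 members with under 0.4% of their UMIs in the markers. The ringed cells hold 3 to 9 marker UMIs each, while most unringed cells hold a run of several markers.

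The rule drew its line through sparse cells. Of all cells, 2928 held none of the 10 markers, 148 held 1 and 34 held 2. Just outside the line, the cells with 2 markers had a median of 2 marker UMIs. Just inside it, the 27 cells with 3 markers had a median of 4 marker UMIs, and 15 of them were members. The 13 cells with all 10 markers had a median of 150 marker UMIs, and 11 of them were members.

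The members fell into 42 cells whose other genes mostly followed the label mesothelial or fibroblast, and 18 whose other genes mostly did not. In 42 members at least 0.4% of all UMIs came from the 10 markers, and these are called marker-rich. In 18 the share was lower, and these are called marker-poor. Since every member held at least 3 marker UMIs, cells of few UMIs passed this limit whatever their other genes. The shallowest marker-rich cell held 263 UMIs in all, and the shallowest marker-poor cell 1124. The limit of 0.4% was set after the values were seen, at a gap between the highest poor cell at 0.362% and the lowest rich cell at 0.480%. The 35 mesothelial marker-rich cells drew a median of 3.49% of their UMIs from mesothelial genes that the rule did not use, with a range of 0.473% to 8.36%. The 12 mesothelial marker-poor cells drew a median of 0.343% from those genes, against 0.0732% in cells outside the rule. The 7 fibroblast marker-rich cells drew a median of 3.67% from matrix genes that the rule did not use, and the lowest of them drew 0.323%. Genes outside the rule thus stood with the label in the marker-rich cells, and only weakly in the mesothelial marker-poor ones. Exceptions among the marker-rich cells are named with the fibroblasts below.

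The marker-poor cells carried genes of other liver cells. Endothelial, macrophage and lymphatic markers together made up a median of 1.66% of the UMIs in marker-poor cells (0.338% to 5.57%), and 15 of 18 reached 1%. In marker-rich cells the median was 0.116% and the highest value 0.757%. Clec4g, a lectin of liver sinusoidal endothelium, had 5 or more UMIs in 9 of 18 marker-poor cells, up to 35, and at most 3 UMIs in any marker-rich cell. The deepest marker-poor cell, in HFHC 1, held 12508 UMIs. It had 134 UMIs of C1qa, 98 of Cd5l, 52 of Clec4f and 23 of Vsig4, genes of the resident macrophages of the liver (Kupffer cells), and 5 UMIs of rule markers. The marker-poor cell of control 4 held 174 UMIs of Ccl21a, 15 of Mmrn1 and 4 of Prox1, genes of lymphatic endothelium, among 4163 UMIs. The 18 marker-poor cells came from HFHC 1 (5 cells), control 1 (12 cells) and control 4 (1 cell). No doublet caller was run, and whether these cells were doublets or took up free RNA was not tested.

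**Figure D2:**
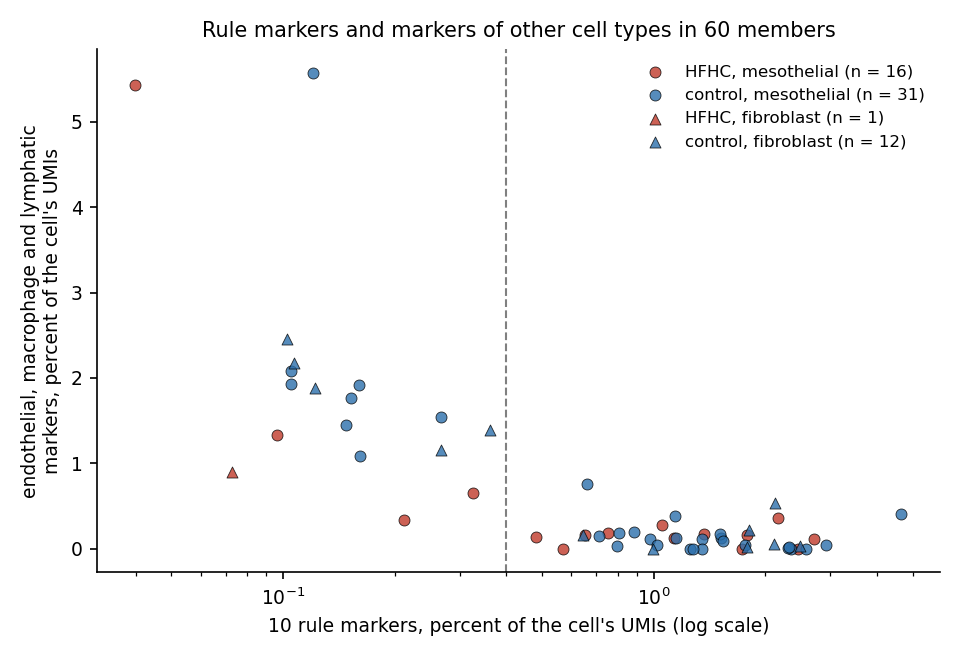
Percent of each member's UMIs in the 10 rule markers (x axis, log scale) against the percent in endothelial, macrophage and lymphatic markers (y axis), 1 point per cell. Left of the dashed line at 0.4%, 15 of 18 cells reach 1% on the y axis, and right of it none of 42 does.

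Another set of cells with mesothelial RNA fell outside the rule through the biliary limit. There were 22 cells with at least 3 of the 10 markers and at least 3 biliary markers, 13 in HFHC 1 and 9 in HFHC 2, and none in a control library. Mesothelium expresses Krt7 itself, and Krt7 is among the biliary markers. Of the 22, 4 held high mesothelial counts. A cell of HFHC 1 with 13327 UMIs had 51 UMIs of Msln, 27 of Upk3b and 205 of Slpi. A cell of HFHC 2 with 14611 UMIs had 142 UMIs of Dcn, 23 of Msln and 26 of Upk3b. The count of members in the HFHC libraries is therefore a count under this limit.

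With each barcode counted once, the members were concentrated in 1 library of each diet. In HFHC 1, 15 of 47 cells were members, a share of 31.9% (95% Wilson interval 20.4% to 46.2%), while HFHC 2 had 1 member (1.35%), HFHC 3 had 1 (0.117%) and HFHC 4 had none. In control 1, 31 of 55 cells were members, a share of 56.4% (43.3% to 68.6%), while control 2 had 8 (0.914%), control 4 had 4 (4.26%) and control 3 had none. Intervals here and below cover counting error only. A count of 0 allowed a share of up to 0.487% in HFHC 4 and up to 0.523% in control 3. The groups overlapped fully, with both extremes of the control group at or beyond those of the HFHC group.

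No difference in share between the diets was larger than the spread between libraries. Members made up 8.35% ± 15.7 of cells in HFHC libraries and 15.4% ± 27.4 in control libraries (SD, n = 4 each), a difference of -7.04 points with p = 0.629 in a two-sided exact permutation test. Mesothelial members made up 7.81% ± 14.7 of cells in HFHC libraries and 11.6% ± 20.2 in control libraries (SD, n = 4 each; exact permutation p = 0.629). Fibroblast members made up 0.532% ± 1.06 of cells in HFHC libraries and 3.75% ± 7.20 in control libraries (SD, n = 4 each; exact permutation p = 0.714). Adjusted over the 3 shares, each p was 0.714, where the smallest p that 4 against 4 libraries allow is 0.0286. Control 1 set the direction, since without it the HFHC mean was higher by 6.62 points for members, 6.24 for mesothelial and 0.380 for fibroblast members. The direction also turned, to 2.79 points for members and 2.88 for mesothelial members, when every barcode copy was kept.

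**Figure D3:**
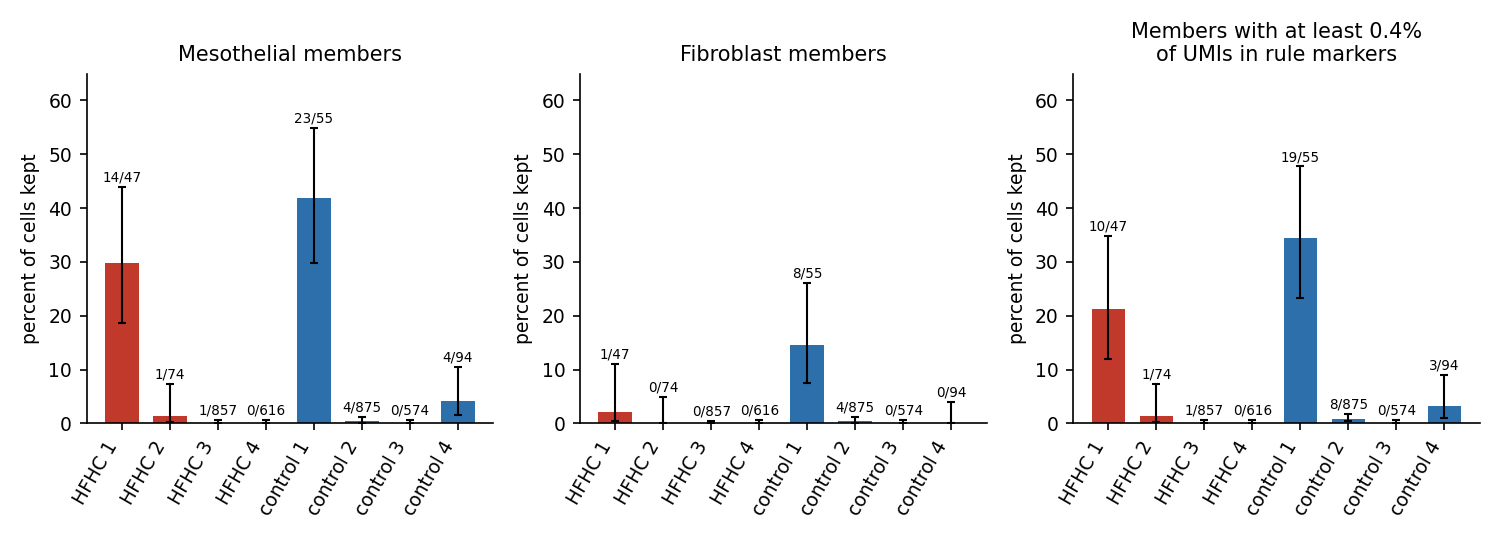
Percent of a library's cells that were mesothelial members, fibroblast members and marker-rich members (3 panels), 1 bar per library with the HFHC libraries left and the control libraries right, 95% Wilson intervals as lines and cell counts above. HFHC 1 and control 1 stand far above the other libraries of their diet, with 29.8% and 41.8% mesothelial members.

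The makeup of the members also differed between libraries. Mesothelial cells were 14 of 15 members in HFHC 1 (93.3%), against 23 of 31 in control 1 (74.2%). In control 2 only 4 of 8 members were mesothelial (50%), while all 4 members of control 4 were (100%). The single members of HFHC 2 and HFHC 3 were mesothelial as well, so the HFHC and control values overlapped. Every marker-rich fibroblast lay in a control library, 3 in control 1 and 4 in control 2. With a single HFHC library of more than 1 member, the makeup of the members has no test between diets.

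The members as a whole differed from the other liver cells by a large mesenchymal and secretory programme. Levels are given as CPM, the UMIs of a gene scaled to a common total over the summed cells of a set, and a fold of 4 was used to count genes, with no test, since the members were chosen by expression. Of 13187 genes with at least 10 UMIs, 9.17% were at least 4-fold higher in members and 4.47% at least 4-fold lower. The 10 rule markers were chosen to differ and are among those counted here, but were left out of every gene list below. Krt7, a biliary marker of the rule, was not left out of the lists. Among the fibroblast matrix genes, 30 of 32 were 4-fold higher in members, and among the mesothelial identity genes 22 of 30. Portal fibroblast genes were 4-fold higher in 8 of 10, complement and coagulation genes in 11 of 21 and growth factor genes in 11 of 22. Cell cycle genes were 4-fold lower in 4 of 15, and lymphocyte genes in 6 of 9.

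The genes furthest above the other cells were mostly of the extracellular space. Gpc3, the heparan sulfate proteoglycan glypican-3, had 529 CPM in members against 4.16 CPM in other cells, and was found in 30 of 60 members and 13 of 3132 other cells. Mgp, matrix Gla protein, an inhibitor of calcification, had 1204 CPM in members against 11.1 CPM in other cells. Fbln1, the elastic fibre protein fibulin-1, had 441 CPM in members against 4.46 CPM in other cells. Meg3, an imprinted long non-coding RNA, had 738 CPM in members against 6.09 CPM in other cells. Cpz, a secreted carboxypeptidase, was the gene with the widest ratio, at 23 UMIs in members and 1 UMI in all other cells. The other 15 chosen by the same rule were Htra3, Adamts2, Ndn, Adamtsl1, Cdh11, Ogn, Chst4, Clec3b, Enpp2, Col6a1, Mfap5, Sbsn, Spock2, Osr1 and Cdon, with ratios between 67.3 and 361.

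Several secreted proteins of defence and growth factor binding were high in the members. Slpi, a secreted inhibitor of leukocyte proteases on chromosome 2 from 164354070 to 164389095 on the minus strand, had 6770 CPM in members against 115 CPM in other cells. The other genes of its antimicrobial and acute phase list went the other way, since of 13 measured Slpi alone was 4-fold higher in members, 4 were 4-fold lower, and the median log2 difference was -0.94. C3, the central complement component on chromosome 17 from 57203970 to 57228136 on the minus strand, had 5213 CPM in members against 163 CPM in other cells. Rarres2, which encodes the chemoattractant chemerin, had 4476 CPM in members against 119 CPM in other cells. Igfbp6 and Igfbp5, binding proteins of insulin-like growth factors, had 3555 and 2641 CPM in members against 77.5 and 101 CPM in other cells. C4b, another complement component, had 905 CPM in members against 32.4 CPM in other cells. Of the sort antigens, Pdpn (podoplanin) was found in 24 of 35 mesothelial marker-rich cells and had 521 CPM there, against 20.6 CPM in cells outside the rule. Ptprc (CD45) was found in 3 of these 35 cells, Pecam1 (CD31) in 9 and Mcam (CD146) in none.

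Macrophage markers were high in the summed members too, with 7 of 10 at least 4-fold higher than in other cells, but a few cells carried them. They made up 1.10% of the summed UMIs of the marker-poor members and 0.0620% of those of the marker-rich members, against 0.0964% in other cells. They reached 1% of UMIs in 3 of 18 marker-poor cells and 0 of 42 marker-rich cells. The deepest marker-poor cell, described above, held most of the members' UMIs of C1qa, Cd5l and Clec4f.

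Within the marker-rich members, mesothelial cells carried an epithelial set of genes that was low or not detected in the fibroblasts. The 7 fibroblasts held few UMIs, so that a count of 3 UMIs there equals 91.6 CPM, and lower levels cannot be told from absence. This comparison sets 35 mesothelial cells of 6 libraries against 7 fibroblasts of 2 control libraries, so kind and library are partly confounded. Of 3729 genes, 3.3% were at least 4-fold higher in mesothelial cells and 3.57% at least 4-fold lower, which is the background for the counts that follow. Epithelial junction and polarity genes were 4-fold higher in 7 of 11, interferon and MHC genes in 7 of 19 and mesothelial identity genes in 13 of 25. The junction and identity lists overlap, since Cldn15, Ezr, Krt8, Krt18 and Krt19 passed in both. The biliary marker Krt7, which the rule used to leave out cells, was among the junction genes that passed. Fibroblast matrix genes were 4-fold lower in mesothelial cells in 8 of 30, chemokine genes in 4 of 8, portal fibroblast genes in 4 of 9 and stellate genes in 3 of 7.

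Keratins separated the kinds. Krt19, an intermediate filament of simple epithelia on chromosome 11 from 100140810 to 100148665 on the minus strand, had 340 UMIs (1625 CPM) in mesothelial cells and 0 UMIs in fibroblasts, at least 17.7-fold higher against a floor of 3 UMIs over the fibroblasts. Krt18, another keratin of simple epithelia, had 344 CPM in mesothelial cells and 0 in fibroblasts. Myl7, a myosin light chain best known from heart atrium, had 841 CPM in mesothelial cells and 0 in fibroblasts, at least 9.18-fold higher. Cldn15, a tight junction claudin, had 497 CPM in mesothelial cells against 30.5 CPM in fibroblasts, and Ezr, which anchors microvilli, had 788 CPM against 61.1 CPM. The signalling genes Gas6, a ligand of TAM receptors, and Rspo1, a Wnt potentiator, had 1677 and 664 CPM in mesothelial cells against 91.6 and 61.1 CPM in fibroblasts.

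Antigen presentation genes were higher on the mesothelial side, and so were some macrophage genes. H2-Ab1 and H2-Aa, which encode MHC class II chains, had 401 and 377 CPM in mesothelial cells and 0 in fibroblasts. Cd74, the invariant chain that guides class II, had 1066 CPM in mesothelial cells against 91.6 CPM in fibroblasts. Beside them, C1qb had 30 UMIs in mesothelial cells and 0 in fibroblasts, Tyrobp had 25 and 0, and macrophage markers came to 0.0698% of UMIs against 0.0122%. In control 2, H2-Ab1 had 25 UMIs in mesothelial cells and 0 in fibroblasts, and C1qa, Cd5l, Clec4f and Vsig4 were at 0 in both kinds. These are only part of the 10 macrophage markers, and the source of the class II RNA was not tested. Slpi had 9833 CPM in mesothelial cells against 1344 CPM in fibroblasts, where 1 cell of control 1 held 38 UMIs of Slpi and 1 of Msln, and drew 8.08% of its UMIs from the mesothelial list. C3 was shared by both kinds, at 7291 CPM in mesothelial cells and 3115 CPM in fibroblasts.

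The fibroblasts were set apart by adventitial and matrix genes. Pi16, a peptidase inhibitor that marks adventitial fibroblasts on chromosome 17 from 29317680 to 29330593 on the plus strand, had 0 UMIs in mesothelial cells and 93 UMIs (2840 CPM) in 4 of 7 fibroblasts, so it was at least 198-fold lower in mesothelial cells. Gsn, the actin-severing protein gelsolin on chromosome 2 from 35256380 to 35307892 on the plus strand, had 205 CPM in mesothelial cells against 21379 CPM in fibroblasts, 104-fold lower in mesothelial cells (95% interval 76.4 to 145). Ebf1, a transcription factor of B cells and mesenchymal cells, had 19.1 CPM in mesothelial cells against 1374 CPM in fibroblasts. Dpt, the matrix protein dermatopontin, had 14.3 CPM in mesothelial cells against 1191 CPM in fibroblasts. The chemokines Cxcl12 and Ccl11 had 4.78 and 0 CPM in mesothelial cells against 1435 and 428 CPM in fibroblasts. Clec3b, the plasminogen-binding protein tetranectin, was on both sides at 468 CPM in mesothelial cells and 3634 CPM in fibroblasts.

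Most of these genes also split inside control 2, which had 4 marker-rich cells of each kind. There Krt19 had 17 UMIs in mesothelial cells and 0 in fibroblasts, Cd74 had 99 and 0, and Slpi had 255 and 1. Gsn had 2 UMIs in mesothelial cells of control 2 and 454 in its fibroblasts, and Pi16 had 0 and 91. Myl7 did not separate the kinds there, with 0 UMIs in both, so its level in the sum came from the mesothelial cells of other libraries.

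The fibroblasts were themselves mixed. Of the 7 marker-rich ones, 3 cells of control 2 held Gsn at 169, 199 and 86 UMIs with Pi16 at 38, 16 and 37 UMIs. A cell of control 1 held 246 UMIs of Gsn, 21 of Ebf1 and 15 of Penk, the precursor of enkephalin, with no Pi16. The fourth cell of control 2 carried stellate genes instead, with 12 UMIs of Lrat, the enzyme that stores vitamin A as retinyl esters, 17 of Reln, 12 of Colec11, 27 of Ecm1 and no Gsn. Cxcl13, a B cell chemoattractant, came to 70 UMIs in 1 cell of control 2, which made up the whole of the 2138 CPM in fibroblasts. Of the 47 mesothelial members, a cell of control 1 with 7459 UMIs leaned to matrix, with 118 UMIs of Col1a1, 90 of Col3a1, 82 of Col1a2, 28 of Lum and 14 of Postn beside 8 of Wt1 and 3 of Upk3b.

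**Figure D4:**
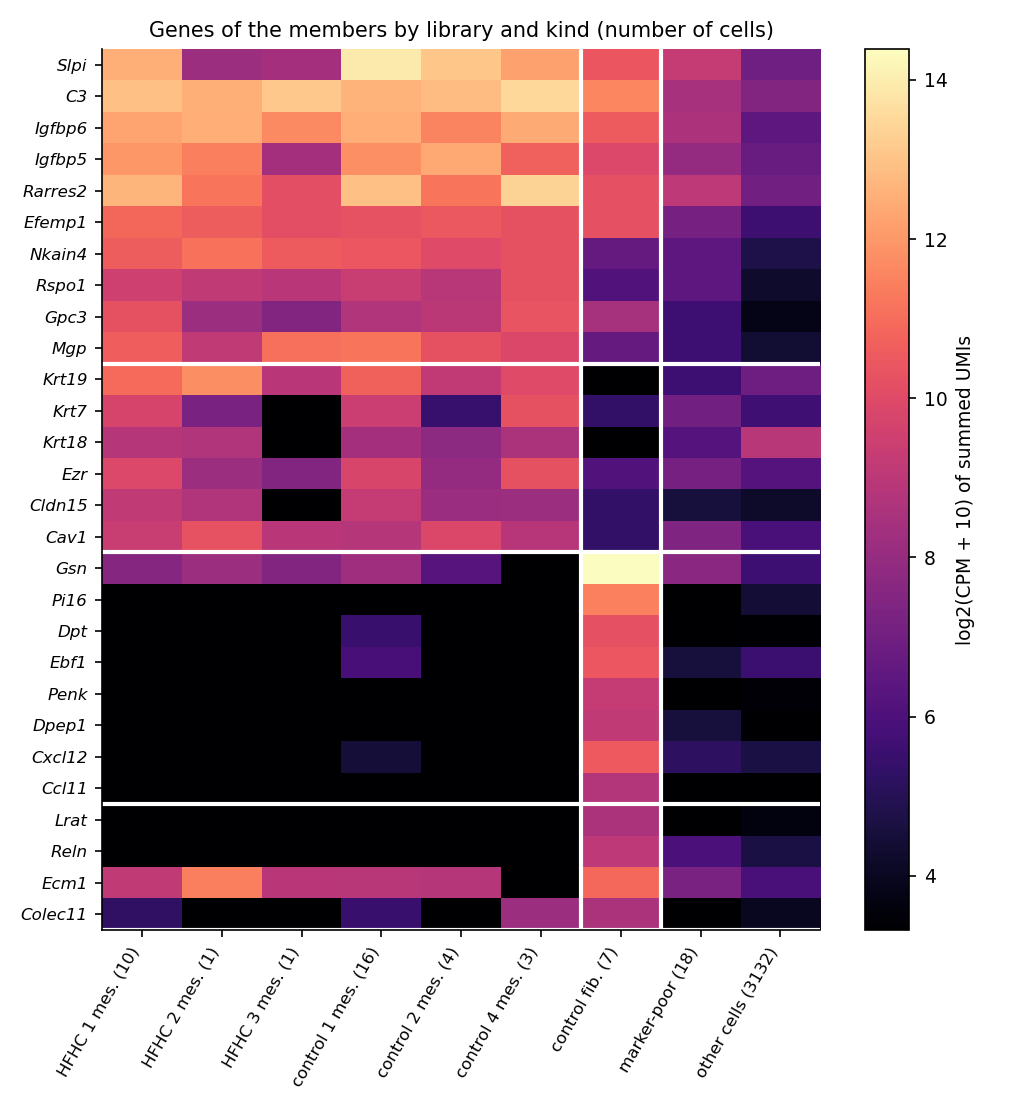
Heat map of 28 genes (log2 of CPM plus 10) in the summed mesothelial marker-rich cells of each library (HFHC columns left of control columns), the control fibroblasts, the marker-poor members and all other cells, with the number of cells in brackets. Krt19 is dark in the fibroblast column, and Gsn and Pi16 are bright only there.

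HFHC 1 and control 1 were the only libraries with 10 or more mesothelial cells, and only a few genes differed between them by 4-fold. In the marker-rich mesothelial cells, 10 of HFHC 1 and 16 of control 1, 1.47% of 2512 genes were at least 4-fold higher in HFHC 1 and 1.87% at least 4-fold lower. Of 25 mesothelial identity genes none passed 4-fold either way, and their median log2 difference was 0.19 against 0.02 over all genes. Of 18 interferon and MHC genes and of 9 epithelial junction genes none passed either. At these background shares less than 1 gene of such a list would pass, so the counts say nothing particular of the lists. These are single libraries, so no test between diets was possible and intervals cover the counting of molecules only.

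Among highly expressed genes, C3, Igfbp6 and Krt19 had like levels in these libraries and Slpi did not. C3 had 7736 CPM in HFHC 1 against 6344 CPM in control 1, a ratio of 1.22 (95% interval 1.08 to 1.38). Igfbp6 had 5019 CPM in HFHC 1 against 5722 CPM in control 1, a ratio of 0.877 (0.763 to 1.01). Krt19 had 1955 CPM in HFHC 1 against 1712 CPM in control 1, a ratio of 1.14 (0.899 to 1.45). Slpi had 5920 CPM in HFHC 1 against 15800 CPM in control 1, a ratio of 0.375 (0.335 to 0.418). In the other libraries, Slpi was 277 CPM in the single cell of HFHC 2 and 329 CPM in that of HFHC 3, against 8654 CPM in control 2 and 4794 CPM in control 4. In these summed levels HFHC 1 thus lay above control 4 and below control 2, and the groups overlapped. The library medians per cell, given next, did not overlap, with 1 cell each in HFHC 2 and HFHC 3.

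Slpi varied widely between cells of a library. Per 10000 UMIs, in marker-rich mesothelial cells of at least 1000 UMIs, Slpi ran from 1.00 to 186 with a median of 3.07 in the 7 cells of HFHC 1, and was 2.77 in the cell of HFHC 2 and 3.29 in that of HFHC 3. It ran from 9.46 to 549 with a median of 147 in the 12 cells of control 1, from 0 to 203 with a median of 30.5 in the 4 cells of control 2, and was 38.4 and 65.5 in the 2 cells of control 4. Of these cells, 7 of 9 HFHC cells were under 10 and 2 were at 50 or more, against 3 of 18 and 11 of 18 control cells. Cells of 1 library are not replicates of a diet, and 7 of the 9 HFHC cells came from 1 library.

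Other genes followed other patterns. C3 per 10000 UMIs had medians of 76.7 in HFHC 1, 57.6 in control 1 and 63.0 in control 2, with single cells at 59.5 and 88.8 in HFHC 2 and HFHC 3. Dcn had medians of 27.7 in HFHC 1 and 51.9 in control 1, but stood at 170 and 169 in HFHC 2 and HFHC 3 and at a median of 159.9 in control 2. Enpp2, which encodes autotaxin, was 22.1 and 16.5 in HFHC 2 and HFHC 3, between 0.995 and 33.0 in the 4 cells of control 2, and was found in 2 of 7 cells of HFHC 1 and 2 of 12 cells of control 1. Msln had medians of 13.0 in HFHC 1 and 12.8 in control 1, against 1.38 and 1.65 in the cells of HFHC 2 and HFHC 3 and a median of 0.772 in control 2. High Dcn with low Msln thus marked the single cells of HFHC 2 and HFHC 3. It also marked the 4 cells of control 2, with Dcn of at least 134 and Msln of at most 8.05. Dcn reached 50 in 3 of 7 cells of HFHC 1 and 6 of 12 cells of control 1 too. The cell of HFHC 2 described above, left out by the biliary limit, had high counts of both Dcn and Msln.

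**Figure D5:**
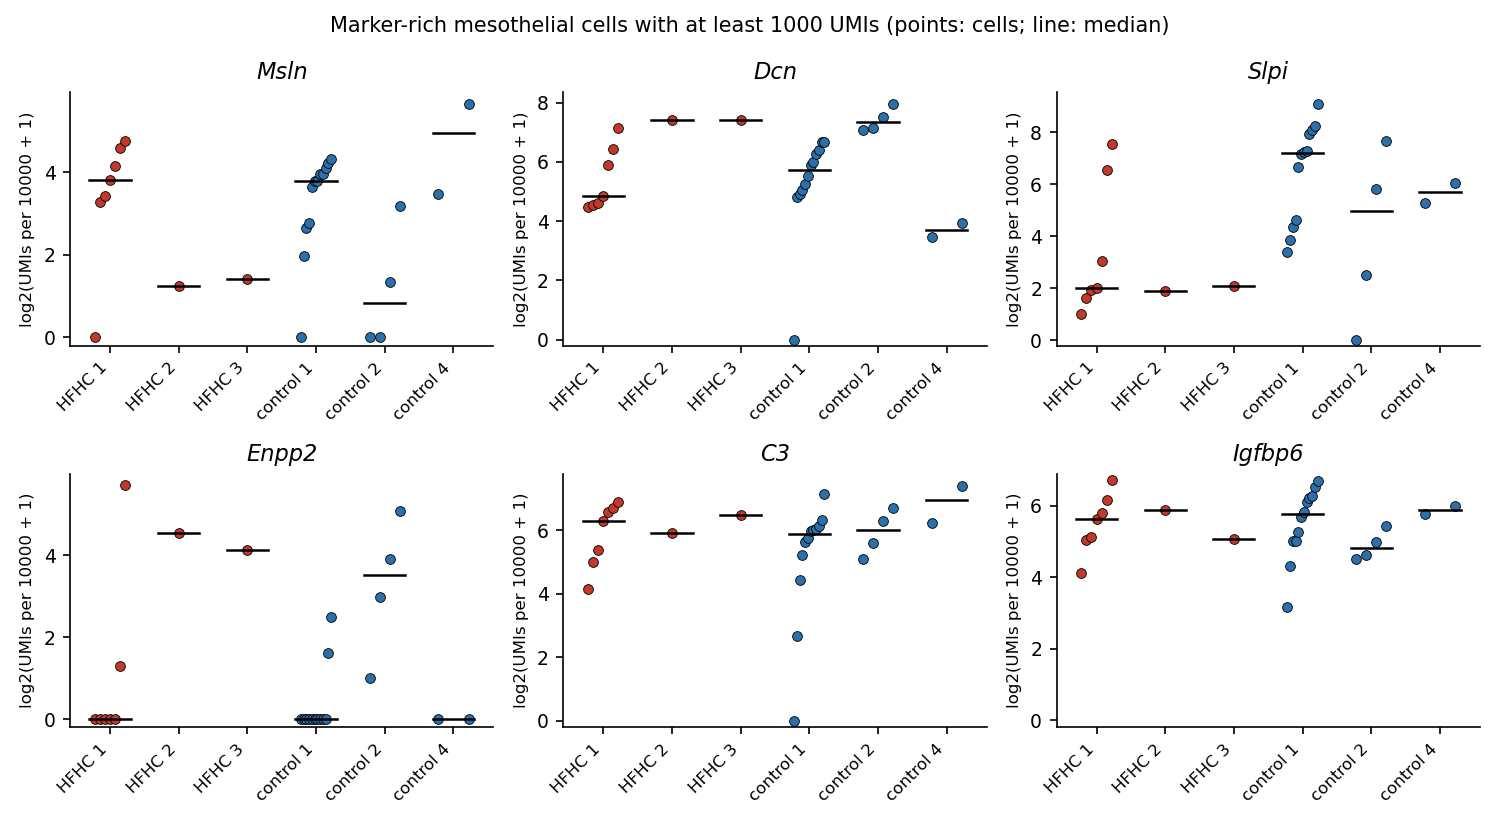
Levels of Msln, Dcn, Slpi, Enpp2, C3 and Igfbp6 (log2 of 1 plus UMIs per 10000) in single marker-rich mesothelial cells of at least 1000 UMIs, by library with HFHC libraries left and control libraries right; points are cells and lines are medians. Slpi is under 10 per 10000 in 7 of 9 HFHC cells and 3 of 18 control cells, while C3 overlaps throughout.

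A few genes stood further apart between HFHC 1 and control 1. Plat, tissue plasminogen activator, had 333 CPM in HFHC 1 against 12.0 CPM in control 1, with UMIs in 6 of 10 cells against 1 of 16, a ratio of 27.8 (95% interval 4.53 to 1143). It had 554 and 494 CPM in the cells of HFHC 2 and HFHC 3, against 204 CPM in control 2 and 0 in control 4. Every HFHC value was thus above every control value, at 1 cell each in HFHC 2 and HFHC 3. However, a count of 3 UMIs equals 415 CPM in HFHC 2, 494 CPM in HFHC 3 and 277 CPM in control 4. The values of these libraries thus lie at or near the floor, and the order rests on few UMIs. Mt2, a metal-binding metallothionein, had 1151 CPM in HFHC 1 against 180 CPM in control 1 (ratio 6.41, 3.67 to 12.0), but 0 in HFHC 2 and HFHC 3. Osr1, a transcription factor of mesenchyme, had 402 CPM in HFHC 1 against 71.8 CPM in control 1 (95% interval of the ratio 2.28 to 16.5), and 831 and 987 CPM in HFHC 2 and HFHC 3 against 679 CPM in control 2. Col14a1, a fibril-associated collagen, had 111 CPM in HFHC 1 against 551 CPM in control 1 (ratio 0.201, 0.0821 to 0.431). Lum and Postn, also lower in HFHC 1, owed 28 of 30 and 14 of 17 of their control 1 UMIs to the 1 matrix-rich cell described above.

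Some stress genes and RNA of other cells also differed between these libraries. Jun, an immediate early transcription factor that rises during tissue dissociation, had 153 CPM in HFHC 1 against 658 CPM in control 1, and Fos 277 CPM against 1029 CPM. The 17 immediate early and heat shock genes had a median log2 difference of -0.82, with 6 higher and 11 lower in HFHC 1, and only Jun passed 4-fold. Over all mesothelial members of the same libraries their median was -0.23. Alb, from hepatocytes, had 291 CPM in HFHC 1 against 47.9 CPM in control 1. Spp1 (osteopontin) had 416 CPM in HFHC 1 against 35.9 CPM in control 1, where cells outside the rule had 9191 CPM in HFHC 1 and 6716 CPM in control 1. The summed macrophage markers were 0.143% of UMIs in HFHC 1 against 0.0359% in control 1, hepatocyte markers 0.202% against 0.0694% and endothelial markers 0.0458% against 0.116%. Their part in the differences was not tested.

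When the marker-poor cells were included, more genes stood 4-fold apart between the libraries, markers of other cell types among them. Over all mesothelial members, 14 of HFHC 1 and 23 of control 1, 2.79% of 3267 genes were 4-fold higher in HFHC 1 and 4.16% lower. All 10 macrophage markers were 4-fold higher in HFHC 1, and 7 of 10 endothelial markers were 4-fold lower. The single macrophage-marked cell described above held most of these UMIs in HFHC 1, with 134 of 153 for C1qa, 98 of 115 for Cd5l, 52 of 62 for Clec4f and 23 of 26 for Vsig4. Summed over all 17 HFHC and 43 control members, 1.61% of 4771 genes were 4-fold higher and 2.39% lower in HFHC members. Cd5l had 115 UMIs in HFHC members against 5 in control members, and C1qb 186 against 22, while Clec4g had 8 against 167 and Gsn 17 against 741. The macrophage genes rested on HFHC 1, without which the log2 ratios were 1.35 for Cd5l, against 5.11 with all libraries, and -0.59 for C1qb, against 3.86. Clec4g rested on control 1, without which its log2 ratio was 2.48 against -3.39 with all libraries. Gsn kept a log2 ratio of -3.60 or below with any library left out, against -4.53 with all, and stood at -1.90 with every barcode copy kept. None of 26 mesothelial identity genes passed 4-fold, a count near the background, and 7 of 31 fibroblast matrix genes were 4-fold lower in HFHC members, which held 1 fibroblast against 12.

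A test between diets could be made only on the summed members of libraries with at least 5 of them, HFHC 1 against control 1 and control 2. The test rests on 1 HFHC library, assumed to vary like the 2 control libraries, and on 1 residual degree of freedom, and all 3 libraries shared barcodes. Its p-values set HFHC 1 against these controls and cannot stand for the diet. In edgeR's quasi-likelihood test with Benjamini-Hochberg adjustment, 0.131% of 2287 genes, 3 in all, were higher in HFHC 1 and 0.0% lower (67 genes had an unadjusted p of at most 0.05). The 3 genes were Folr2, Cfp and Cd5l, all of macrophages. Folr2, a folate receptor of resident macrophages, had 37 UMIs in HFHC 1, 0 in control 1 and 0 in control 2 (log2 8.15 ± 1.34 SE, edgeR adjusted p = 0.0409). In DESeq2's Wald test the calls of Folr2 and Cfp were lost, with DESeq2 adjusted p = 0.999 and 0.9998, and that of Cd5l was kept at 0.0398. Of the 37 UMIs of Folr2, 36 lay in the single macrophage-marked cell described above, as did 29 of 36 UMIs of Cfp and 98 of 115 UMIs of Cd5l. Among the marker-rich members alone, Cd5l had an edgeR adjusted p of 0.999, and 9 of 1619 genes passed, 3 higher and 6 lower in HFHC 1. Ebf1 was one of them, with 0 UMIs in HFHC 1 against 25 in control 1 and 24 in control 2, and it is a gene of the fibroblasts, none of which was marker-rich in HFHC 1. Over all members Ebf1 had an edgeR adjusted p of 0.0773. With each barcode counted once, neither mesothelial nor fibroblast members alone reached the number of libraries that a test needs.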

How the data were processed

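Liver cells from 4 HFHC and 4 control mice were profiled by 10x Chromium single-cell RNA sequencing. The authors deposited UMI counts per gene and cell. The matrix used here holds all 8 libraries, with 31053 genes. The counts were made with Cell Ranger 3.0.1 and Seurat on mm10 per the submitters' processing notes. No Seurat version is given in the sources used here. These deposited counts were used unchanged. Total counts per library, from 170448 to 2309209 UMIs, set the precision, so genes of few UMIs carry wide intervals.

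Of a barcode found in several libraries, the copy with most UMIs was used. Members were found by the marker rule, and cells were not filtered further. The members, the 28 gene lists (452 genes) and the comparisons were chosen with earlier results of these data known. Shares were compared over libraries by a two-sided exact permutation test (70 assignments, scipy 1.17.1), adjusted over 3 shares where 4 had been planned. Member counts were summed per library and tested with edgeR 4.0.16 (TMM, filterByExpr, quasi-likelihood). The planned minimum of 10 members left 1 library per diet, so 5 was used. DESeq2 1.42.0 was an alternative. On simulated counts with 4-fold changes, the test recovered 32.3% of 195 changed genes among 2423. The simulation gave every gene the same spread and drew the changed genes from those above a minimum count. Its recovery therefore does not measure the power of the test on the real sums. Ratios of summed counts carry exact conditional 95% intervals.

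Genes were named by list, or as the 20 with the highest CPM ratio (prior count 1) among genes with UMIs in at least 20% of the cells of the higher side and at least 50 CPM there. Rule and biliary markers and mitochondrial, ribosomal, haemoglobin, immunoglobulin, sex-linked and predicted genes were left out of that ranking. Lgals1 was chosen after its values were seen. Alternatives were the marker minimum, the biliary limit, barcode copies, a gene minimum, thinning to 1000 UMIs, the 0.4% limit, scaling, filter and test, and each library left out.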

Additional observations from a re-analysis of the deposited data

Results flagged for a closer look

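In each diet, 1 library lay far from the other 3 in its share of members, with each barcode counted once. The share of members was 31.9% in HFHC 1, with the next HFHC library at 1.35%, and 56.4% in control 1, with the next control library at 4.26%. For mesothelial members the shares were 29.8% in HFHC 1, with the next at 1.35%, and 41.8% in control 1, with the next at 4.26%. For fibroblast members they were 2.13% in HFHC 1, with the next at 0, and 14.5% in control 1, with the next at 0.457%. The gap to the nearest library, set against the range of the 4, passed Dixon's 95% limit in all 6 groups. That limit, at which chance alone would mark about 1 in 20 groups, assumes normally distributed values. Shares bounded at 0, in libraries of unlike size, need not follow it. In the HFHC fibroblast group, 1 cell of HFHC 1 stood beside 0 in the other libraries, so a single cell fixed the outcome. The 6 groups are also not independent, since the member share is the sum of the other shares. HFHC 1 and control 1 were the smallest libraries once barcode copies were removed, with 47 and 55 cells. As deposited they held 74 and 129 cells, against 108 in HFHC 2 and 94 in control 4. With every copy kept, HFHC 1, HFHC 2 and HFHC 3 had 25, 16 and 17 members, and control 1 and control 2 had 42 and 23. The shares above thus depend on the library to which a shared barcode was assigned. The part of library size or of barcode sharing in the shares was not tested.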

How the results depend on the processing

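The direction of the share differences depended on single choices. With every barcode copy kept, the HFHC minus control difference was 2.79 points for members and 2.88 for mesothelial members. With no limit on biliary markers it was 2.92 and 4.06 points. Leaving out 1 library at a time gave -14.9 to 6.62 points for members, -11.1 to 6.24 for mesothelial and -4.47 to 0.380 for fibroblast members, each positive only without control 1. Under the other settings, among them 2 or 4 markers, 500 genes and marker-rich members, the differences stayed negative or at 0. None passed the threshold. Within the barcode-sharing libraries the member difference was -17.5 points, and within the others -2.13. Thinned to 1000 UMIs it was -2.22. With the replicate number as a block (exact sign flips over 4 numbered pairs) the differences of -7.04, -3.82 and -3.22 points each had p = 0.5. The labels do not say that a shared number marks a shared origin.

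The mesothelial percent of members in HFHC 1 minus the mean of control 1 and control 2, the libraries with at least 5 members, was 31.2 points. It was 18.6 points with control 4 (4 members) included, 23.0 with every library that had a member, 5.24 with copies kept, 5.97 at 2 markers and 19.1 to 43.3 with a control library left out. The 3 edgeR calls became 37 with DESeq2 size factors, 25 with no filter, 9 in marker-rich members, 1 with copies kept at 10 cells and 22 with copies kept and a replicate block, against 2 with DESeq2's Wald test, where Folr2 and Cfp were lost; the 1 call with copies kept was lower in HFHC. The cause was not tested. Of 40 genes named between the summed HFHC and control members, 4 turned direction with a library left out, as log2 ratios. C1qb ran from -0.59 without HFHC 1 to 5.86 without control 1, Adh1 from -4.27 without control 1 to 0.027 without HFHC 1, Dnase1l3 from -3.96 without control 2 to 1.12 without control 1, and Clec4g from -3.85 without control 2 to 2.48 without control 1. Not run, for too few libraries, were the planned tests at 10 and 20 cells, those on mesothelial or fibroblast sums (other than mesothelial sums with copies kept, where 0 of 818 genes passed in edgeR, with 16 at an unadjusted p of at most 0.05), and libraries left out of the 5-cell test.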

Other observations

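Lgals1, which encodes the galactose-binding lectin galectin-1, varied between mesothelial cells and followed the split seen for Dcn only in part. Per 10000 UMIs it was 144 in the single cell of HFHC 2 and 161 in that of HFHC 3, with a median of 27.3 in the 7 cells of HFHC 1. It had medians of 1.48 in the 12 cells of control 1 and 55.7 in the 4 cells of control 2, and was at most 5.96 in the 2 cells of control 4. The ranges overlapped, since HFHC 1 ran from 0.655 to 76.6 and control 2 from 3.98 to 108. Dcn went the other way between HFHC 1 and control 1, with medians of 27.7 and 51.9.

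Myl7 was patchy among mesothelial cells. It was found in 5 of 7 cells of HFHC 1 and in neither cell of HFHC 2 and HFHC 3, against 8 of 12 cells of control 1, none of 4 in control 2 and both cells of control 4. Its highest values per 10000 UMIs were 31.3 in HFHC 1 and 64.9 in control 1.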
